A study of Mus musculus with 2 samples.

Results

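The insulin-like growth factor (IGF) genes described here are 8 of the 33904 genes in both matrices. They are the ligand gene Igf1, the receptor gene Igf1r and the genes of 6 secreted binding proteins, Igfbp2, Igfbp3, Igfbp4, Igfbp5, Igfbp6 and Igfbp7, each taken as the row that carries the symbol. The group was chosen by its measured levels, since Igfbp3 and Igfbp2 differ in opposite directions between the fibroblasts of the 2 libraries, so that difference and every other fibroblast ratio given here is a description and was not tested.

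The study asked which skin cells take part in a mouse model of atopic dermatitis, and dorsal skin was measured by single-cell RNA-seq of transcript 3′ ends. There was 1 Ctrl library and 1 AD library, both from female C57BL/6J mice aged 7 weeks whose back hair was removed with depilatory cream 24 hours before the first treatment. Ctrl skin received 100% ethanol alone every day for 10 days on a square with 2 cm sides, and AD skin received 4.5 nmol MC903 in ethanol per application on the same schedule. MC903 (calcipotriol) is a vitamin D analogue that causes dermatitis when put on mouse skin, so AD here stands for a drug-induced model. Both were collected on day 10, and the number of mice behind each library is not given in the sources used here. With 1 library per group there is no replicate check, no test between Ctrl and AD was possible, and all intervals are exact 95% intervals for counting error alone.

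The kept cells were 11399 of 12598 barcodes in Ctrl and 8179 of 8778 in AD, with 105195951 and 61645227 unique molecular identifiers (UMIs, counted transcript molecules) and medians of 7813 and 6330 UMIs per cell. The libraries shared 35 barcodes, 0.278% of Ctrl and 0.399% of AD. Clusters were named again from marker genes, since the study's own cell names were not used, and all names below are marker-based ("dFB-like" and so on, with the suffix left out hereafter). Dermal fibroblasts (dFBs) were the clusters in which at least 50% of cells had a UMI of the fibroblast gene Pdgfra, and they held 5976 Ctrl and 5469 AD cells. All 7 dFB markers were found in over 10% of the cells in both libraries, but the summed level of these markers, which include 3 collagen chains, was 52032 CPM in Ctrl (CPM is a gene's UMIs scaled by all UMIs of its class) and 12293 CPM in AD. Keratinocytes (KCs), macrophages, T cells, both endothelia, pericytes, Schwann cells and melanocytes each had at least 50 cells in both libraries, and only 2 Ctrl cells were adipocytes against 176 in AD. The class called pericytes for short was named with markers of both pericytes and smooth muscle cells. The mix of these cells within it was not compared between the libraries. Shares count the cells with a transcript. Levels are summed over all cells of a class, so they mix that share with the amount of transcript per cell. Cells lost in digestion or capture cannot be told apart from cells absent from the skin.

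Igf1 is a secreted hormone-like factor that promotes growth and survival through Igf1r, a receptor tyrosine kinase. The binding proteins hold the ligand outside cells, prolong its presence and can keep it from or hand it to the receptor, and proteases release it by cutting them. In skin, fibroblasts of the dermis and of the hair follicle base are known sources of Igf1, while keratinocytes carry the receptor. Igfbp7 binds Igf1 only weakly and is best known from blood vessels.

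In the mouse genome (GRCm38, GENCODE M21) Igfbp2 (ENSMUSG00000039323) lies on the plus strand at chr1:72824503-72852474 and Igfbp5 (ENSMUSG00000026185) on the minus strand at chr1:72857932-72874884. These neighbours end 5457 bases apart with their 3′ ends facing each other. Igfbp3 (ENSMUSG00000020427) lies at chr11:7206086-7213923 on the minus strand, 3539 bases from Igfbp1, of which 2 UMIs were counted in kept Ctrl cells and 0 in AD. Igfbp4 (ENSMUSG00000017493) is on the plus strand at chr11:99041244-99054392, far from that pair. Igfbp6 (ENSMUSG00000023046) is on the plus strand at chr15:102144362-102149511, Igfbp7 (ENSMUSG00000036256) on the minus strand at chr5:77349240-77408041, Igf1 (ENSMUSG00000020053) on the plus strand at chr10:87858265-87937042 and Igf1r (ENSMUSG00000005533) on the plus strand at chr7:67952827-68233668. The antisense gene Igf1os overlaps the start of Igf1, and it had 7 UMIs in Ctrl and 3 in AD.

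The 250 bases before the RefSeq start (GRCm38.p6) are printed for 3 binding protein genes, those with the widest fibroblast ratios, because these differ in the letters near their starts. All 8 genes matched a RefSeq promoter entry. Capitals mark matches, on either strand, to the TATA box letters TATAAA or their variant TATATA, to the GC box core GGGCGG, or to the nuclear receptor half-sites AGGTCA and, in another form, AGTTCA (the vitamin D receptor is of that family), and no 2 matches overlap.
Igfbp3: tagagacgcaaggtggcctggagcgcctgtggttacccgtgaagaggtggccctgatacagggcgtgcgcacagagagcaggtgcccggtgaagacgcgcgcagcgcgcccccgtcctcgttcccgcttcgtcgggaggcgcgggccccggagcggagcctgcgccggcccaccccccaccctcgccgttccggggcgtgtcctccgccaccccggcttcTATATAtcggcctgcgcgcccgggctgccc
Igfbp2: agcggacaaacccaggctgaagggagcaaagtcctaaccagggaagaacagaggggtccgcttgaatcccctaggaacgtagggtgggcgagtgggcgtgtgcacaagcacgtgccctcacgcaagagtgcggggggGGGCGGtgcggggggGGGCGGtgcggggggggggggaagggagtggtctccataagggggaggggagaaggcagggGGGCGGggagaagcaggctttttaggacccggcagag
Igfbp4: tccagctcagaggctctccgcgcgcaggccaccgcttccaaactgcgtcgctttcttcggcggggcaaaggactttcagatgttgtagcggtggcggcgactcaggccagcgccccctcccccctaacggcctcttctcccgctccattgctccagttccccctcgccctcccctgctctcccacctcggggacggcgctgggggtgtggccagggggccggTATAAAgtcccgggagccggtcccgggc
The first is chr11:7213924-7214173 on the minus strand, with TATATA beginning 30 bases before the start, the second chr1:72824230-72824479 on the plus strand with GGGCGG 3 times, and the third chr11:99040994-99041243 on the plus strand with TATAAA once. Of 32851 mouse promoters, 5.25% held TATATA, 32.7% GGGCGG and 12.4% TATAAA. Neither half-site was found in these 3 windows, while AGGTCA stood once each in the windows of Igf1 and Igf1r. Of all promoters 14.0% held AGGTCA and 11.8% the other form, AGTTCA. RefSeq gives Igfbp2 another start, whose window at chr1:72825137-72825386 held none of these letters. A match is only a match of letters, and its absence says nothing of what binds there.

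Igf1, the ligand, was lower in AD dFBs. It had 16911 UMIs in Ctrl dFBs, 308 CPM (interval 304 to 313), and 3154 UMIs in AD dFBs, 81.0 CPM (78.2 to 83.8). On a log2 scale the AD level divided by the Ctrl level (log2 AD/Ctrl) gave -1.93 (-1.98 to -1.87), and with 1 CPM added to both, as in all ratios counted below, -1.92. The share of dFBs with at least 1 Igf1 UMI was 59.3% in Ctrl and 20.2% in AD, so fewer cells had a UMI. The level is summed over all dFBs and contains this difference in share. Since AD dFBs were shallower (median 6458 against 8445.5 UMIs), shares were also computed after thinning every cell to 1000 UMIs, and these were 21.5% and 5.84%. T cells had an Igf1 UMI in 6.01% and 2.74% of cells, below the dFB shares. The receptor gene differed in the other direction. Igf1r had 8577 UMIs, 156 CPM (153 to 160), in Ctrl dFBs and 10805 UMIs, 277 CPM (272 to 283), in AD dFBs, log2 AD/Ctrl 0.83 (0.79 to 0.87). Its thinned share was 14.9% in Ctrl and 25.1% in AD. Cells that had a UMI of both Igf1 and Igf1r were 40.5% of Ctrl dFBs and 15.8% of AD dFBs.

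Igfbp3, the binding protein that carries most of the circulating ligand, was a minority transcript in Ctrl dFBs and a dominant one in AD dFBs. It had 28292 UMIs in Ctrl, 516 CPM (510 to 522), and 303756 UMIs in AD, 7797 CPM (7769 to 7824), which is 15.1-fold higher with log2 AD/Ctrl 3.92 (3.90 to 3.94). Its UMIs were seen in 46.9% of dFBs in Ctrl and 91.4% in AD, and in 23.1% and 84.2% after thinning. The median Ctrl dFB had 0 Igfbp3 UMIs and the median AD dFB had 45. In Ctrl the 10% of dFBs with the most UMIs of it held 66.1% of all its dFB UMIs, against 30.9% in AD, so the transcript was spread more evenly over AD fibroblasts. For comparison, T cells, which are not known as a source of Igfbp3, had a UMI of it in 5.91% of cells in Ctrl and 34.9% in AD at median depths of 3040.5 and 5234 UMIs, and the dFB shares lie above both. Cyp24a1, the vitamin D-degrading enzyme that marks exposure to vitamin D analogues, had 0 UMIs in Ctrl dFBs and 3634, or 93.3 CPM, in AD dFBs. That is at least 1706-fold higher when Ctrl is set to 3 UMIs over its dFBs, and Vdr, the vitamin D receptor gene, was at 19.3 and 26.1 CPM.

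Igfbp2, which binds both Igf1 and Igf2, was nearly absent from AD dFBs. It had 6797 UMIs in Ctrl dFBs, 123.9 CPM (121 to 127), and 38 UMIs in AD dFBs, 0.975 CPM (0.690 to 1.34). Log2 AD/Ctrl was -6.99 (-7.49 to -6.53), and -5.98 with 1 CPM added. In Ctrl it was confined to few cells, since 13.9% of dFBs had a UMI (5.97% after thinning) and the top 10% of cells held 96.5% of its dFB UMIs, with up to 84 UMIs in 1 cell. In AD 23 of 5469 dFBs had a UMI, 0.421% (0.267% to 0.630%), and no cell had more than 4. T cells had a UMI in 1.58% of cells in Ctrl and 0.161% in AD (0.00408% to 0.894%). The AD value is 1 UMI in 621 cells, too few to say whether the AD dFB share lies above it. The AD UMIs were not spread evenly, since cluster 33, described below, held 18 of the 38 at 4.37 CPM (2.59 to 6.91), above the T cell interval of 0.00638 to 1.403 CPM. Cells with both Igfbp3 and Igfbp2 were 6.41% of dFBs in Ctrl and 0.366% in AD.

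Igfbp4, a small binding protein cut by the protease Pappa, was lower in AD dFBs, at 655 CPM (35966 UMIs) in Ctrl and 73.4 CPM (2858 UMIs) in AD, log2 AD/Ctrl -3.16 (-3.22 to -3.10). Its share of dFBs was 51.0% in Ctrl and 17.6% in AD. Igfbp6, which prefers Igf2 to Igf1, was at 688 and 310 CPM, log2 AD/Ctrl -1.15 (-1.18 to -1.12), with a UMI in 67.4% and 58.6% of dFBs. Igfbp5, a matrix-bound member, was at 1833 and 932 CPM, log2 AD/Ctrl -0.97 (-0.99 to -0.96), and Igfbp7 was at 707 and 427 CPM, log2 AD/Ctrl -0.73 (-0.75 to -0.70). The last pair are lower in AD by less than 2-fold. Igfbp5 had a UMI in 75.9% and 53.4% of dFBs, and Igfbp7 in 83.9% and 51.7%. T cells with a UMI of each of these 4 genes were between 6.76% and 13.3% of cells in either library, under every dFB share.

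**Figure D1:**
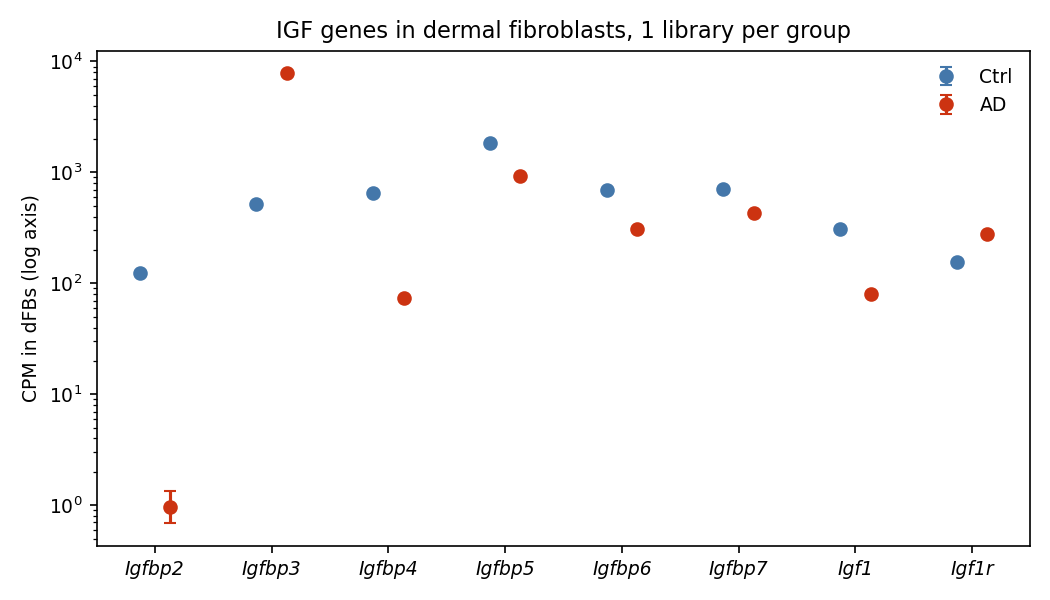
Level of each gene in dFBs (CPM of summed UMIs, log axis) in the Ctrl (blue) and AD (red) library, with exact Poisson 95% intervals that are mostly narrower than the points. Igfbp3 is at 516 and 7797 CPM and Igfbp2 at 123.9 and 0.975 CPM, and the remaining genes differ less.

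With a 2-fold limit on the ratio with 1 CPM added, 1 of the 8 genes was higher in AD dFBs (Igfbp3) and 4 were lower (Igfbp2, Igfbp4, Igfbp6 and Igf1). Among the 9207 genes with at least 10 CPM in dFBs of either library, 6.98% were past 2-fold higher and 13.4% past 2-fold lower. The median log2 ratio was -1.06 over the 8 genes and -0.09 over all 9207. As the fibroblast contrast was part of the choice of genes, nothing is read from these counts.

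The makeup of the binding protein transcripts of dFBs also differed. A 3′ library tags each molecule once, so UMIs of different genes were added without a correction for length. Of 248149 UMIs of Igfbp2 to Igfbp7 in Ctrl dFBs, Igfbp5 held 40.5%, Igfbp7 15.6%, Igfbp6 15.2%, Igfbp4 14.5%, Igfbp3 11.4% and Igfbp2 2.74%. Of 371698 in AD dFBs, Igfbp3 held 81.7%, Igfbp5 9.77%, Igfbp7 4.48%, Igfbp6 3.25%, Igfbp4 0.769% and Igfbp2 0.0102%. Summed over the 6 genes the level was 4523 CPM in Ctrl and 9541 CPM in AD. Most of the sum in AD is therefore 1 gene, while in Ctrl no gene held more than 40.5% of it.

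The difference was then followed within fibroblast types, because Ctrl and AD dFBs fell largely into different clusters. Cells were gated one by one with 6 lists of subset markers, of which 5 had at least 50 cells in both libraries. The gates were not equally filled. Interstitial cells (Dpp4, Pi16 and others) were 41.7% of Ctrl and 11.3% of AD dFBs, and reticular preadipocytes (Grem1, Pparg and others) were 7.61% and 31.7%. Peri-follicular and papillary cells were 6.81% and 6.69%, Areg cells (Fmo2, F3 and others) 1.20% and 11.7%, and follicle mesenchyme 7.97% and 1.08%, which in AD is 59 cells with a median of 2346 UMIs. Between 34.0% and 82.9% of the cells of a gate stood 1 marker from another gate, so gates are ranges and not types. Cells that passed no gate were 25.3% of Ctrl and 37.2% of AD dFBs and are not covered by the counts of gates below.

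Igfbp3 was higher in AD in 5 of 5 gates. It was at 736 CPM in Ctrl against 11019 CPM in AD interstitial cells, at 213 and 7233 CPM in reticular preadipocytes and at 331 and 2667 CPM in follicle mesenchyme. Areg cells already had 2107 CPM in Ctrl and 9051 CPM in AD, and peri-follicular cells had 395 and 1423 CPM. The log2 ratios with 1 CPM added ran from 1.85 in peri-follicular cells to 5.08 in reticular preadipocytes. Igf1r was also higher in 5 of 5 gates, by 0.66 to 1.64 on that scale. Its highest gate was AD follicle mesenchyme at 793 CPM, against 253 CPM in Ctrl.

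Igf1 was lower in AD in 5 of 5 gates, with log2 ratios between -2.58 and -1.72, and so were Igfbp4 (-4.58 to -1.12), Igfbp5 (-3.48 to -0.58), Igfbp6 (-1.37 to -0.73) and Igfbp7 (-1.97 to -0.32). The interval of the plain ratio of Igfbp6 in follicle mesenchyme, where AD had 3 UMIs, ran from -3.73 to 0.14 and includes 0. Igfbp2 had 666 UMIs in Ctrl and 4 in AD peri-follicular cells, 457 and 8 in reticular preadipocytes and 678 and 0 in interstitial cells. In Areg cells it had 0 and 1 UMIs and in follicle mesenchyme 7 and 0, too few to give a direction. Contractile sheath cells, the muscle-like fibroblasts around the hair follicle (Acta2, Itga8 and others), had the highest Igfbp2 level of the gates in Ctrl, with an interval of 448 to 480 CPM and a UMI in 66.7% of 565 cells. Only 21 AD cells passed that gate, and 4 of them, 19.0% (5.45% to 41.9%), had an Igfbp2 UMI, at 61.2 CPM (28.0 to 116). Several genes had the other direction in this gate. Igf1 was at 55.4 CPM (50.05 to 61.1) in Ctrl against 149.7 CPM (93.8 to 227) in AD, Igfbp5 at 129.7 against 218 CPM and Igfbp7 at 1138 against 1687 CPM. These AD levels rest on few cells. A single AD cell held 109 of 248 Igfbp7 UMIs, so the direction of Igfbp7 depends largely on 1 cell. For Igf1 1 AD cell held 10 of 22 UMIs, and for Igfbp3 1 held 102 of 258. Igfbp6 was at 32.8 CPM (28.7 to 37.2) against 54.4 CPM (23.5 to 107), intervals that overlap. Igfbp3 (339 and 1755 CPM), Igf1r (87.1 and 374 CPM) and Igfbp4 (1744 and 88.5 CPM) kept the direction of the 5 gates.

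**Figure D2:**
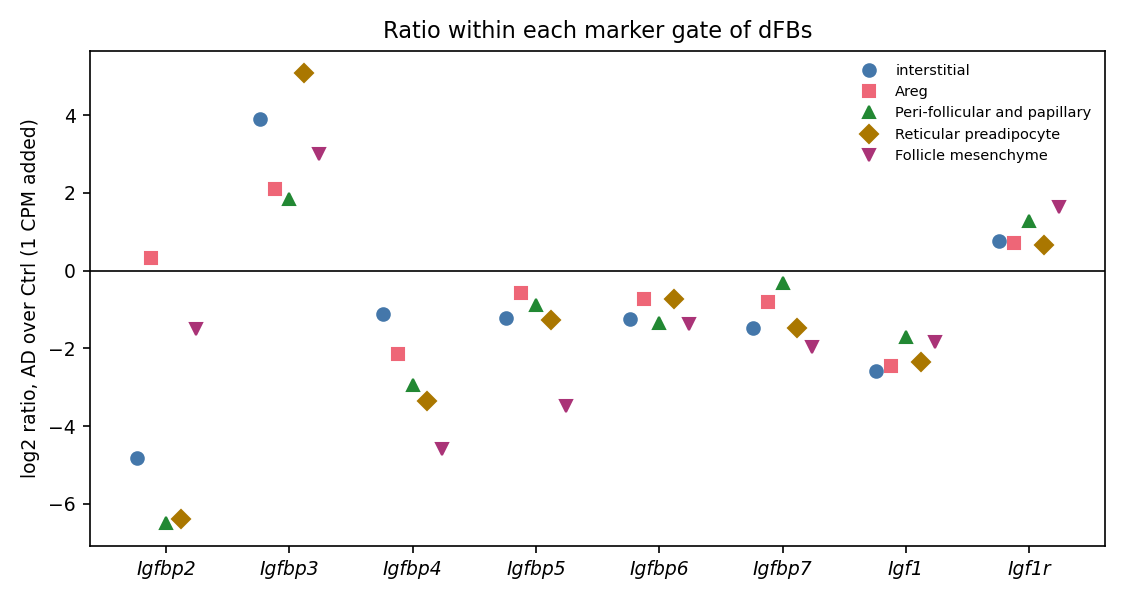
Log2 AD/Ctrl of each gene (1 CPM added) within 5 marker gates of dFBs, 1 symbol per gate. Igfbp3 and Igf1r lie above 0 in all 5 gates, and Igfbp4, Igfbp5, Igfbp6, Igfbp7 and Igf1 below 0 in all 5. Igfbp2 lies below 0 in 4, but its Areg point rests on 1 UMI and its follicle mesenchyme point on 7.

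Clusters made without these genes gave 6 dFB groups with at least 50 cells in each library, and of these only cluster 1 was present in both. The 5 others of Ctrl each had their own pattern. Cluster 9 (Lrrc15, Col11a1 and Acan leading) had the highest Igfbp2, 384 CPM, with a UMI in 52.5% of its cells, and the highest Igfbp4, 1807 CPM. Cluster 0 (Ccl19, Lum and Mfap4), the largest with 2330 cells, had 134.7 CPM of Igfbp2 and 3033 CPM of Igfbp5 but only 71.0 CPM of Igfbp3. Cluster 16 (Myoc, Thbs4 and Cilp) had the highest Igfbp3 of Ctrl at 1430 CPM, the highest Igf1 at 820 CPM and the highest Igfbp6 at 1636 CPM. Cluster 5 (Smpd3, Sfrp2 and Dpp4) followed for Igfbp3 at 1004 CPM and for Igfbp6 at 1553 CPM. Cluster 8 (Rspo3, Hhip and Corin), with genes of the follicle base, had the highest Igf1r of Ctrl, 259 CPM. In Ctrl, then, Igfbp2 and Igfbp3 peaked in different clusters.

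In AD, 3 clusters had Igfbp3 near 10000 CPM, namely cluster 11 (Cxcl13 and Pamr1) at 12209 CPM, cluster 12 (Ptx3, Cxcl1, Ccl2 and Il6) at 11570 CPM and cluster 17 (Mgp, Fmo2 and Prg4) at 9637 CPM. A UMI of it was in 98.3%, 100% and 96.8% of their cells. Cluster 34 (Tnc, Cpxm1 and Saa3) had 3200 CPM and cluster 33 (Rasd1, Dkk2 and Spp1), the shallowest with a median of 3730 UMIs, had 1835 CPM. Each of these 5 lay above every Ctrl cluster. Cluster 33 had the highest Igf1r of all dFB clusters, 535 CPM, and cluster 17 the highest Igfbp6 of AD, 570 CPM. Igfbp7 was low in clusters 11 and 12, at 69.6 and 82.0 CPM, and between 527 and 694 CPM in clusters 17, 33 and 34. Igfbp2 was at most 4.37 CPM in any AD cluster.

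Cluster 1 (Fmod, Coch and Aspn), with 79 Ctrl and 91 AD cells, allows a comparison within 1 cluster. Igfbp3 was at 31.7 CPM (15 UMIs) in Ctrl and 265 CPM (220 UMIs) in AD, 8.36-fold higher (4.96 to 15.2). In AD 1 cell held 114 of those 220 UMIs, which the interval does not take into account. The AD level also lay below the 965 CPM of AD T cells, and the part of RNA from other fibroblasts in it was not tested. Igfbp2 had 13 UMIs in Ctrl and 0 in AD, at least 7.61-fold lower when AD is set to 3 UMIs. Igfbp4 was at 907 and 116 CPM and Igf1 at 706 and 231 CPM. These 4 differences have the direction found over all dFBs. Igfbp5, in contrast, was at 3389 CPM in Ctrl against 3814 CPM in AD, 1.13-fold higher (1.06 to 1.20), and Igfbp7 at 1116 and 1328 CPM, 1.19-fold higher (1.07 to 1.32), so neither summed level was lower in AD within this cluster. For Igfbp5 1 Ctrl cell held 247 of 1603 UMIs and 1 AD cell 278 of 3167. The intervals leave out such spread between cells, so these small differences give no firm direction.

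**Figure D3:**
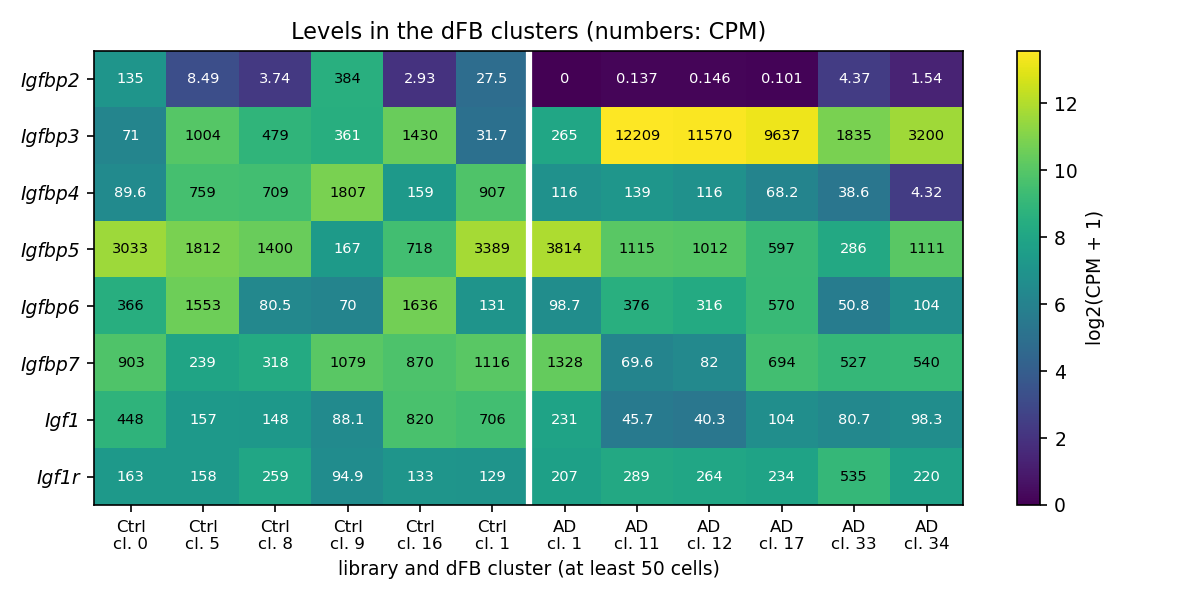
Level of each gene (CPM printed in each cell, colour on a log2(CPM + 1) scale) in the dFB clusters with at least 50 cells, Ctrl clusters left of the white line and AD clusters right of it. Igfbp3 is between 1835 and 12209 CPM in the 5 AD clusters other than cluster 1, where it is at 265 CPM, and Igfbp2 is highest in Ctrl clusters 9 and 0.

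Outside fibroblasts, each level was read beside that of 7 fibroblast genes in the same class, because fibroblast RNA outside its own cells, or a fibroblast captured with another cell, would add fibroblast transcripts to any class, and neither was tested. In Ctrl KCs, for example, these 7 genes were at 4.4% to 5.1% of their dFB level. The range was wide in AD pericytes (9.1% to 91.1%), AD Schwann cells (4.1% to 39.1%) and AD melanocytes, so there it separates little. For Igfbp3 in AD, KCs were at 223 CPM or 2.86% of the dFB level (fibroblast genes 1.9% to 4.0%), macrophages at 591 CPM or 7.58% (6.5% to 14.4%), T cells at 965 CPM or 12.4% (11.0% to 14.3%) and lymphatic endothelium at 610 CPM or 7.82% (8.1% to 12.1%). None of these levels lies above the range, and the higher Igfbp3 of these classes in AD could not be told apart from fibroblast RNA. In Ctrl, KCs were above it, at 66.0 CPM or 12.8%. Within KCs the Krt14 cluster had 155 CPM in Ctrl, 30.1% of the dFB level (fibroblast genes 3.6% to 7.5%), and 152 CPM in AD, 1.94% (1.0% to 3.0%), log2 AD/Ctrl -0.03 (-0.20 to 0.13). In Ctrl, blood endothelium was also above its range, at 163 CPM or 31.7% of the dFB level, where the fibroblast genes were at 2.9% to 5.9%, and 33.3% of its 117 cells had a UMI. In AD it was at 705 CPM or 9.04%, inside the range of 5.3% to 24.0%. The T cell clusters of AD were unlike. The cluster led by Il17a (231 cells) held 3075 of the 3832 Igfbp3 UMIs, at 2542 CPM with up to 229 UMIs in 1 cell, which is 32.6% of the dFB level (fibroblast genes 20.1% to 33.4%). The cluster led by Gzmc (259 cells), in contrast, had 126.0 CPM or 1.62% (2.0% to 11.5%). AD melanocytes had 2470 CPM or 31.7% (3.8% to 23.2%), but their summed melanocyte markers were at 3963 CPM against 37106 CPM in Ctrl while their summed dFB markers were at 1891 against 1049 CPM, and the part of mixed cells in this value was not tested.

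Among the named classes with at least 50 cells in both libraries, Igfbp7 was highest in blood endothelium and pericytes. It was at 3278 CPM in Ctrl against 3380 CPM in AD blood endothelium, log2 AD/Ctrl 0.04 (-0.03 to 0.12), and at 2281 and 2363 CPM in pericytes, log2 AD/Ctrl 0.05 (-0.02 to 0.12). In pericytes 97.5% and 97.3% of cells had a UMI. These levels were 322% to 791% of those of dFBs and differed between the libraries by less than counting error, while Igfbp7 in dFBs was lower in AD. Lymphatic endothelium had less than dFBs, at 156 and 166 CPM or 22.1% and 38.9% of their level. The unnamed cluster of smooth muscle genes described below (60 and 8 cells) had 2456 and 5087 CPM.

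Igfbp5 in the class of pericytes and smooth muscle cells was lower in AD. It was at 3521 CPM (4618 UMIs) in Ctrl and 409 CPM (617 UMIs) in AD, log2 AD/Ctrl -3.11 (-3.23 to -2.98), with a UMI in 93.0% and 49.2% of cells. The Ctrl level was 192% of the dFB level, far above the fibroblast genes (6.3% to 14.1%), while the AD level was 43.9% of it, inside their range of 9.1% to 91.1%. In lymphatic endothelium it was at 1611 and 910 CPM, log2 AD/Ctrl -0.82 (-0.90 to -0.75), with almost equal shares of 65.0% and 66.1%. Igfbp4 in pericytes was at 682 and 587 CPM, log2 AD/Ctrl -0.22 (-0.35 to -0.08), a far smaller gap than that of Igfbp5. In blood endothelium Igfbp4 was at 335 and 206 CPM, in lymphatic endothelium at 263 and 50.1 CPM and in KCs at 132 and 119 CPM. Within KCs the gap was wider in the Krt14 cluster, at 213 and 156 CPM, log2 AD/Ctrl -0.45 (-0.60 to -0.29). The KC cluster led by Krt15 and Sox9 had 167 and 75.9 CPM, log2 AD/Ctrl -1.14 (-1.39 to -0.90). In a KC cluster with 42 AD cells only 4 AD UMIs were counted. Among classes with at least 50 cells in both libraries, Igfbp6 lay furthest above the fibroblast genes in Schwann cells, the glia of skin nerves. It was at 412 and 253 CPM or 59.9% and 81.6% of the dFB level (fibroblast genes at most 14.7% and 39.1%). This rests on few cells, since 24 of 215 Ctrl and 17 of 95 AD cells had a UMI. In Ctrl 1 cell held 70 of 310 UMIs, and in AD 1 cell held 35 of 97. AD neutrophils (49 cells) were at 59.3% of the dFB level (fibroblast genes up to 29.9%).

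Igfbp2 outside dFBs was mainly found in KCs. KCs had 51.0 CPM (1090 UMIs) in Ctrl and 26.2 CPM (149 UMIs) in AD, log2 AD/Ctrl -0.96 (-1.22 to -0.71), and they held 13.1% of all Igfbp2 UMIs of kept cells in Ctrl and 71.3% in AD, where only 209 UMIs were left. KC clusters differ in number between the libraries, so levels were also compared within them. The cluster led by Krt14, the keratin of basal KCs, and Fcgbp (404 and 144 cells) had 119 and 44.0 CPM, log2 AD/Ctrl -1.44 (-1.71 to -1.17). The cluster led by Elovl6 and Fa2h, genes of lipid synthesis, had 198 CPM in 95 Ctrl cells, with only 3 AD cells. An unnamed cluster of smooth muscle genes (Des, Myh11 and Actg2), with 60 Ctrl and 8 AD cells, had 307 and 192 CPM and held 9.57% of the AD UMIs.

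Igf1 outside dFBs was found mainly in macrophages and, in AD, in adipocytes. Macrophages were at 247 CPM in Ctrl against 55.6 CPM in AD, log2 AD/Ctrl -2.15 (-2.41 to -1.90), or 80.1% and 68.7% of the dFB level (fibroblast genes up to 17.3% and 14.4%). Most of it was in the cluster led by Retnla, C1qa and Mrc1, genes of resident macrophages, which had 640 CPM in 407 Ctrl cells and 184 CPM in 108 AD cells, log2 AD/Ctrl -1.80 (-2.09 to -1.51). The cluster led by antigen-presentation genes (H2-Ab1 and Cd74) had 34.5 and 15.3 CPM. AD adipocytes (176 cells) had 404 CPM with a UMI in 65.9% of cells, and held 21.2% of all AD Igf1 UMIs, whereas 2 Ctrl adipocytes allow no comparison. Blood endothelium went the other way, at 27.9 CPM (22 UMIs) in Ctrl and 100.6 CPM (128 UMIs) in AD, log2 AD/Ctrl 1.85 (1.19 to 2.57), and the AD level was 124% of the dFB level (fibroblast genes up to 24.0%). It rests on few cells, since 22 of 126 AD cells had a UMI and 1 cell held 49 of the 128. Over the whole library dFBs held 88.6% of Igf1 UMIs in Ctrl and 68.4% in AD.

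Igf1r was not confined to fibroblasts, and dFBs held 59.7% of its UMIs in Ctrl and 75.7% in AD. An unnamed cluster of 846 Ctrl but only 2 AD cells held 15.2% of the Ctrl UMIs, at 170 CPM, and 0.0280% of those of AD. The dFB shares therefore also depend on which cells each library held. In KCs Igf1r was at 80.4 CPM in Ctrl against 164 CPM in AD, log2 AD/Ctrl 1.03 (0.91 to 1.14), but this depended on the KC cluster. The cluster led by Krt15 and Sox9, genes of the hair follicle, had 146 and 289 CPM, log2 AD/Ctrl 0.99 (0.83 to 1.14), while the Krt14 cluster had 85.5 and 90.6 CPM, log2 AD/Ctrl 0.08 (-0.13 to 0.30). The Krt15 and Sox9 cluster was 423 of 1414 KCs in Ctrl and 223 of 412 in AD. A small unnamed cluster led by Erfe and Pax7 (62 and 76 cells) had 270 and 721 CPM, log2 AD/Ctrl 1.41 (1.01 to 1.83). Among T cells the Il17a cluster had 304 and 278 CPM, where the clusters led by Ctla4 and by Gzmc had 34.0 to 36.1 CPM and 10.8 to 35.1 CPM. In blood endothelium Igf1r was at 238 and 161 CPM, log2 AD/Ctrl -0.56 (-0.86 to -0.27), lower in AD where dFBs and KCs were higher.

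**Figure D4:**
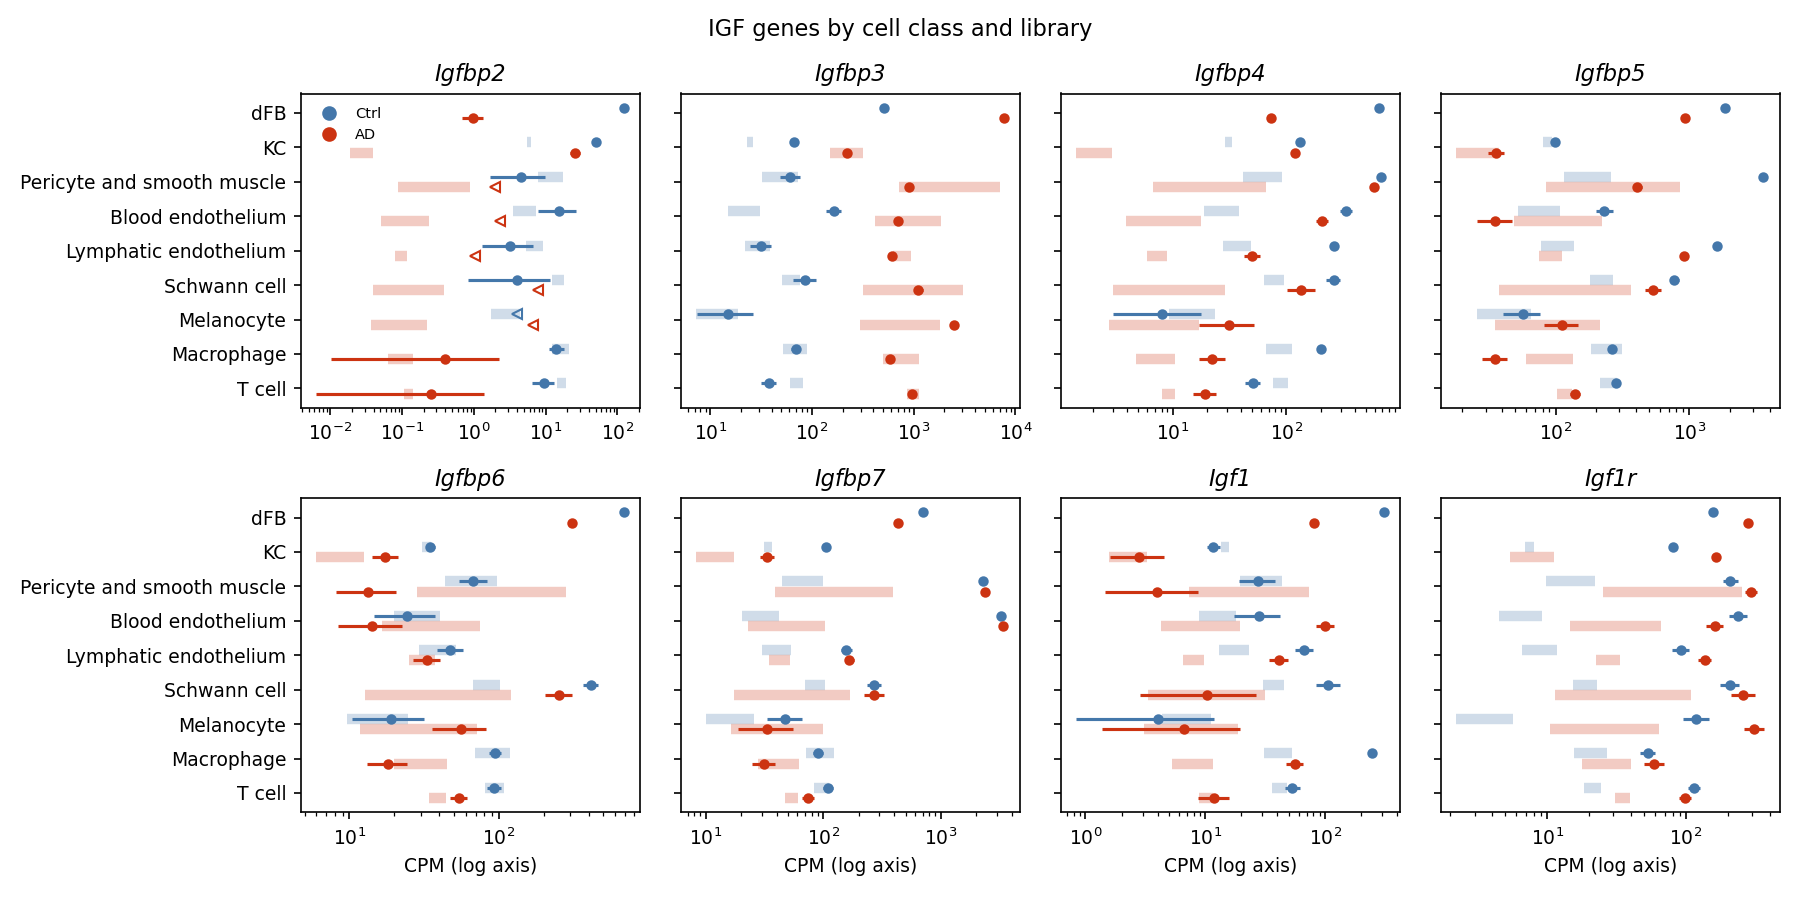
Level of each gene (CPM, log axis) in 9 cell classes of the Ctrl (blue) and AD (red) library with exact Poisson 95% intervals. Pale bars show where the level would lie at the fraction of the dFB level seen for 7 fibroblast genes, and open triangles mark 3 UMIs where none was counted. AD Igfbp3 lies on or near the bars outside dFBs except in melanocytes, while Igfbp7 in pericytes and blood endothelium lies far above them in both libraries.

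The 2-fold count per class was 1 higher and 6 lower of 8 genes in macrophages, where 5.4% of all tested genes were higher and 9.97% lower. In KCs it was 2 higher and 3 lower, beside 5.61% and 11% of all genes, and in pericytes 1 higher and 3 lower of 7, beside 6.44% and 10.5%. In blood endothelium it was 2 and 2 of 8 (5.1% and 13.8%), in lymphatic endothelium 1 and 1 of 7 (3.51% and 8.01%), in Schwann cells 1 and 1 of 7 (8.35% and 16.4%) and in T cells 1 and 3 of 7 (2.62% and 7.84%). In melanocytes, with few cells and noisy ratios, it was 4 and 0 of 6 (19.7% and 19.7%), and in the Erfe and Pax7 cluster 2 and 1 of 7 (19.1% and 17.7%). Igfbp3 was the gene counted as higher in each of these 9 classes, at levels that in most of them lay inside the range of the fibroblast genes. In Ctrl macrophages Igfbp5, Igfbp6 and Igfbp7 were at 12.7% to 14.4% of the dFB level, inside the 10.0% to 17.3% of the fibroblast genes, and Igfbp2 was at 11.5%, inside it too. These 4 of the 6 lower counts could not be told apart from fibroblast RNA, while Igfbp4 at 30.5% and Igf1 at 80.1% lay above that range.

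The rest of the pathway was described from a list of 28 further genes, all in the matrix, of which 19 had at least 10 CPM in dFBs. Past 2-fold, 4 were higher in AD dFBs and 3 lower, beside 6.98% and 13.4% of all genes, with a list median of 0.01. On the receptor side Insr, the insulin receptor gene, was at 45.7 CPM in Ctrl against 139.8 CPM in AD, log2 AD/Ctrl 1.61 (1.54 to 1.68). Ghr, the growth hormone receptor gene, was at 138 and 370 CPM, log2 AD/Ctrl 1.42 (1.38 to 1.46). Irs2, an adaptor downstream of Insr, was at 136.9 and 472 CPM, log2 AD/Ctrl 1.79 (1.75 to 1.83), whereas its relative Irs1 was at 52.2 and 42.4 CPM. Igf2, the second ligand, was at 0.310 and 0.308 CPM, so dFBs of neither library had a measurable amount beyond 17 and 12 UMIs.

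Among the proteases that cut binding proteins, Pappa2 was at 49.6 CPM in Ctrl against 106.5 CPM in AD, log2 AD/Ctrl 1.10 (1.03 to 1.17), and Pappa was at 64.3 and 64.8 CPM. Htra1, a secreted protease that cuts Igfbp5 among other substrates, was at 527 and 91.8 CPM, log2 AD/Ctrl -2.52 (-2.57 to -2.47). The proteases therefore did not share a direction. Kazald1, which encodes a protein related to the binding proteins, was at 36.4 and 4.90 CPM, log2 AD/Ctrl -2.89 (-3.11 to -2.68). Tmem219, which encodes a cell surface partner of Igfbp3, was at 31.6 and 14.9 CPM, log2 AD/Ctrl -1.08 (-1.22 to -0.95), lower where Igfbp3 was higher. Downstream of the receptor, Pik3r1 was at 346 and 187 CPM, Grb10 at 159 and 168 CPM and Foxo1 at 134 and 148 CPM, all within 2-fold.

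**Figure D5:**
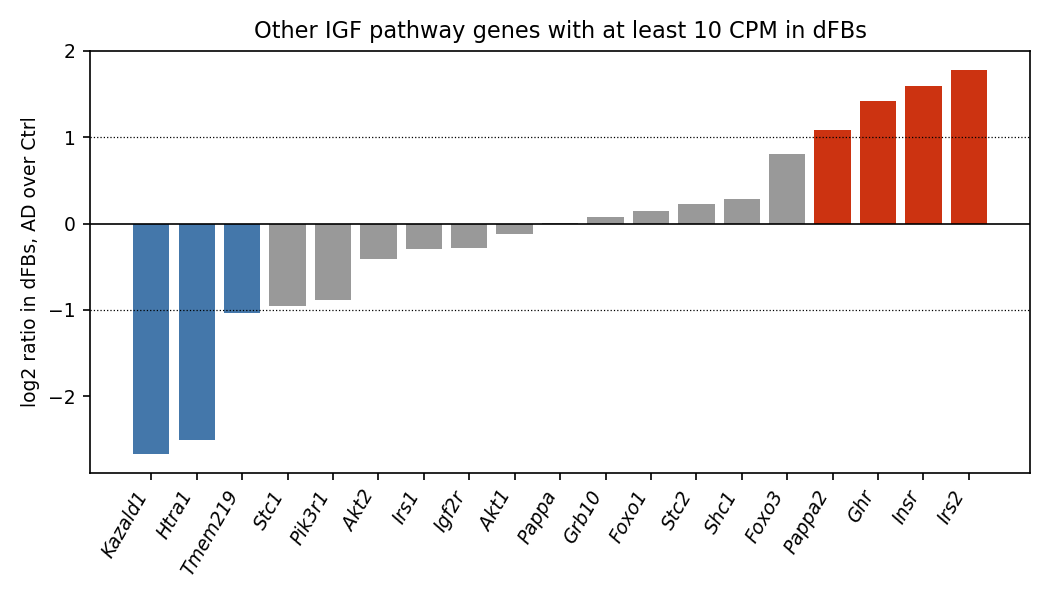
Log2 AD/Ctrl in dFBs (1 CPM added) of the 19 further pathway genes with at least 10 CPM, ordered by ratio, with dotted lines at 2-fold. Irs2, Insr, Ghr and Pappa2 lie above the upper line, and Kazald1, Htra1 and Tmem219 below the lower one.

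Across 25 classes (cell type or unnamed cluster by library, at least 50 cells) and 5496 genes with at least 100 CPM in any of them, the genes whose log2(CPM + 1) was most like that of Igfbp3 were Cxcl13 (Pearson r 0.90), Galnt15 (0.86), the agouti gene a (0.86), Ctsk (0.86) and Xdh (0.86). Those most like Igfbp2 were Sema3c (0.80), Hebp2 (0.77), Hhip (0.74), Grem1 (0.74) and Tmem119 (0.72). Cxcl13, a chemokine that attracts B cells, was at 261 CPM in Ctrl against 2774 CPM in AD dFBs, and Sema3c, a secreted guidance factor, at 383 and 80.0 CPM. The classes of a library share its depth and its free RNA, so these correlations are a description.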

How the data were processed

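Dorsal skin of 1 Ctrl and 1 AD library was measured by 10x 3′ single-cell RNA-seq. The authors deposited, for each library, a matrix of raw UMI counts per gene and barcode, aligned to mm10 and not normalized. The submitters' processing notes name Cell Ranger 3.1.0 and Seurat 5.0, while the matrix headers name Cell Ranger 5.0.0 and the methods a later version. Doublet removal before deposit is not stated.

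The 8 genes, the pathway list and the markers were chosen with earlier results of these data known. The filter of the study's methods was applied, which passes barcodes with 200 to 6000 genes and mitochondrial UMIs (13 genes) of no more than 10%. Both libraries were clustered together with scanpy 1.11.5 (2000 variable genes after leaving out 36 IGF genes, values capped at 10, 30 components, 20 neighbours, Leiden resolution 1, seed 0). A cluster was called dFB when at least 50% of its cells had a Pdgfra UMI, under 10% each had Ptprc, Epcam or Pecam1, and 3 dFB markers were found in at least 10% of cells. Any other cluster took the type with the largest share of its markers in at least 10% of cells and at least 2 times the lower quartile over clusters (10 CPM added), with 3 markers needed, and stayed unnamed where markers of a different type outnumbered its own among the 10 genes that led it. This rule was settled with the cluster markers in view. Gates needed 2 markers of a list and more than of any other. The doublet caller marked 395 Ctrl cells (3.47%) and 0 AD cells, so it did not work in AD, and doublets were kept.

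Levels are CPM of UMIs summed over a class, with exact Poisson intervals, shares have exact Clopper-Pearson intervals, and ratio intervals come from the exact conditional binomial distribution. Shares were thinned to 1000 UMIs as exact expectations, leaving out 126 Ctrl and 310 AD dFBs. PCR copies were collapsed by UMI, and intervals cover counting error only. Calls past 2-fold used ratios with 1 CPM added among genes that reached 10 CPM in Ctrl or AD. On simulated counts for 8765 genes with 200 changed, 100% of changes were recovered with 0 false calls, and intervals covered 96% of true ratios. These counts had the Poisson error that the intervals assume, and all changes were set past 2-fold, so this outcome was largely fixed beforehand. It checks the calculation alone and says nothing of variation between mice or libraries. The genes named are the 8, every pathway gene past 2-fold or at 100 CPM in dFBs, the 5 genes most alike Igfbp3 and Igfbp2, and relatives named beside them (Igf2, Irs1, Pappa) after their values were seen. numpy 2.4.6, scipy 1.17.1, pandas 2.3.3, anndata 0.12.19, scikit-learn 1.9.0, igraph 0.11.9 and matplotlib 3.10.9 were used on Python 3.11.15.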

Additional observations from a re-analysis of the deposited data

Results flagged for a closer look

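In 3 cases a gene past 2-fold in AD dFBs had the opposite direction, also past 2-fold, in another class, and the difference between the classes was not tested. Igf1 in blood endothelium had a log2 ratio of 1.81 with 1 CPM added (22 UMIs in Ctrl and 128 in AD), against -1.92 in dFBs. Its AD level there was 124% of the dFB level, where the 7 fibroblast genes were at 5.3% to 24.0%, and 22 of 126 cells had a UMI. Igfbp4 in melanocytes had a log2 ratio of 1.82 (6 and 14 UMIs) and Igfbp6 a ratio of 1.50 (14 and 25 UMIs), against -3.14 and -1.15 in dFBs. In AD melanocytes Igfbp4 was at 42.4% and Igfbp6 at 17.9% of the dFB level, where the fibroblast genes were at 3.8% to 23.2%, and in this class 19.7% of all tested genes were past 2-fold higher and 19.7% lower. The part of free fibroblast RNA in the melanocyte values was not tested.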

How the results depend on the processing

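All 8 genes kept their direction in dFBs in 15 of 15 alternatives, of which 3 were chosen after seeing the data (the highest 5% of doublet scores left out, clusters 8 and 33 left out, 5 gates weighted equally). Some of these could not have reversed a direction. Adding 10 CPM to both levels never can, and equal weighting cannot where all 5 gates already agree, as for every gene but Igfbp2. Leaving out called doublets removed cells of Ctrl only, since 395 Ctrl and 0 AD cells were marked. Igfbp3 had a log2 ratio of 3.49 with all deposited barcodes, 3.90 at resolution 2, 4.01 with the median of all genes set to 0, 3.80 without mitochondrial, ribosomal protein and collagen genes, 3.89 with 10 CPM added, 4.03 without clusters 8 and 33 and 3.19 with gates weighted equally. Igfbp2 was at -3.61 with 10 CPM added and -3.78 with gates weighted equally, and between -6.46 and -3.61 in all. For Igfbp2 the equal weighting includes Areg cells (0 and 1 UMIs) and follicle mesenchyme (7 and 0), too few to give a direction. Igf1r was past 2-fold with all barcodes and with gates weighted equally, so that 2 genes were then counted as higher. Igfbp5 was past 2-fold lower in some alternatives (-1.49 to -0.88), as was Igfbp7 with gates weighted equally (-1.21). Leaving out mitochondrial, ribosomal protein and collagen genes moved the median of all genes from -0.09 to -0.23. The causes of these shifts were not tested. No paired analysis was possible because each group is 1 library. With 1 library a group, depth limits Igfbp2 in AD, where 38 UMIs were counted in dFBs, and every class with under 50 cells.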
